A study of Homo sapiens with 8 samples.

Results

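The genes of laminin-332, its integrin receptors and the hemidesmosome were followed by RNA sequencing in DLD1, an established human line from a colorectal tumour. Members were listed by name, with earlier results of these data known: the laminin chains LAMA3 and LAMB3, the integrin subunits ITGA2, ITGA3, ITGA6, ITGB1 and ITGB4, and the plakin linkers PLEC and DST. These are 9 of the 58302 genes in the count table, and all 9 had enough reads to be among the 14133 genes tested. The group called OE-WT carried lentiviral overexpression of TRMT6 and TRMT61A, the 2 subunits of a methyltransferase that puts a methyl group on adenosines of tRNA. The CTRL group was transduced with an empty vector, so both groups were lentivirally transduced DLD1 cells, and whether either line was a clone or a pool is not given in the sources used here. Each group had 2 libraries, each sequenced in 2 lanes, from cultures grown in duplicate, and a p-value therefore measures only the spread between these few cultures. The tests used here estimate each gene's spread partly from that of the other genes tested. RNA came from lysates made in the presence of cycloheximide, a blocker of translation, and cleared by centrifugation.

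The libraries held 10327498 to 12379671 counts. TRMT6 was at 210.4 and 181 CPM (counts scaled to a common library total, as in all levels given here) in the OE-WT libraries and at 52.5 and 55.3 CPM in the CTRL libraries. TRMT61A was at 137 and 130.2 CPM in OE-WT against 58.8 and 56.7 CPM in CTRL, so both genes followed the labels. The 8 epithelial marker genes were all detected, with a summed level of 12085 to 12428 CPM in OE-WT and 10852 to 11053 CPM in CTRL. KRT8 and KRT18 made up most of that sum and were higher in OE-WT. The other markers of the list, named after their values were seen, did not share a direction. By edgeR's quasi-likelihood test VIL1 and CDX2 had log2 fold changes of 0.55 and 0.18 (adjusted p 0.110 and 0.078). Their groups did not overlap, and CDX2 passed with the GC trend removed (adjusted p 0.0040). EPCAM overlapped between the groups, with a log2 fold change of -0.08 (adjusted p 0.503). KRT20 was lower, at 8.35 and 9.91 CPM in OE-WT against 27.1 and 25.3 CPM in CTRL (adjusted p 7.0e-08). CDH1 was lower too, with a log2 fold change of -0.29 (adjusted p 0.0032). KRT19 had a log2 fold change of -0.19 (adjusted p 0.049, and 0.778 with the GC trend removed, the range over the alternatives being 0.019 to 0.778). Fibroblast markers were near 0: 3 of 6 (COL1A2, COL3A1 and DCN) had no count in any library, and the summed level was 2.45 to 3.22 CPM in OE-WT and 2.27 to 2.4 CPM in CTRL. Of the 3 endothelial markers CDH5 had no count, and their sum was 0.589 to 0.804 CPM in OE-WT and 1.13 to 2.33 CPM in CTRL. Of the 4 leukocyte markers CD3E had no count, and their sum was 0.294 to 0.402 CPM in OE-WT and 0.0776 to 0.324 CPM in CTRL.

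Laminin-332 is a cross-shaped protein of epithelial basement membranes whose alpha and beta chains are the products of LAMA3 and LAMB3. Epithelial cells hold it through integrin alpha6 beta4, which anchors stable adhesions called hemidesmosomes, and through integrin alpha3 beta1, which serves more dynamic contacts. Inside the cell, plectin and the epithelial form of dystonin tie the beta4 subunit to keratin filaments, and colon epithelium has a simple form of this junction built without all the skin components.

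Of the 9 members, 4 were lower in OE-WT than in CTRL: LAMB3, ITGA3, ITGB4 and PLEC, each at an adjusted p below 0.05. They fell by 0.51 to 0.77 on the log2 scale, which put CTRL 1.43-fold to 1.71-fold above OE-WT. Among all genes tested, 11.6% were lower and 9.44% were higher at that threshold, 21.1% in all. The count of members higher in OE-WT was 0 by edgeR's quasi-likelihood test, and it was also 0 at an unadjusted p below 0.05 and by DESeq2. The other 5 members, LAMA3, ITGA2, ITGA6, ITGB1 and DST, did not pass the test. At an unadjusted p below 0.05 LAMA3 made the count of lower members 5. The share of all genes tested at that looser threshold was not counted, so neither this count nor the 0 higher there has a background beside it. The counts over all genes by DESeq2 are given with the alternatives. The median log2 fold change (OE-WT over CTRL) of the 9 members was -0.25, against 0.01 over all genes tested. At the thresholds of the study's methods, an unadjusted p below 0.05 with an absolute log2 fold change above 1, 0 of 9 members were called by either tool. By edgeR's quasi-likelihood test 3.15% of all genes tested passed these thresholds. In bulk RNA, fewer cells that express a gene and less RNA of it per cell cannot be told apart.

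**Figure D1:**
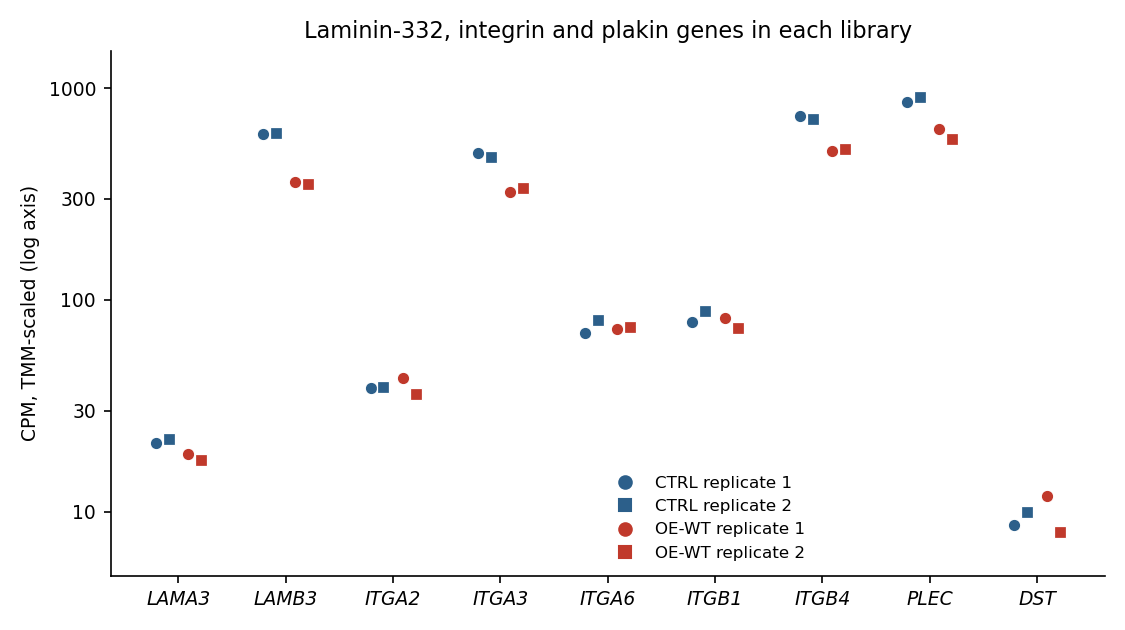
Level of each member in CPM (vertical axis, log scale) in the 2 OE-WT and 2 CTRL libraries, with 1 point per library. The OE-WT points of LAMB3, ITGA3, ITGB4, PLEC and LAMA3 lie below both CTRL points, and those of ITGA2, ITGA6, ITGB1 and DST overlap them.

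The plot of library levels separates the members into these sets. In 5 of 9 members (the 4 called and LAMA3) both OE-WT libraries were below both CTRL libraries, where 30.2% of all genes tested had that order. In the other 4 members the libraries of the groups interleaved.

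Start-site regions are given here as annotated sequence, and which start the RNA in these cells came from was not measured. RefSeq promoter windows were found for 6 of 9 members: LAMA3, LAMB3, ITGA2, ITGA6, ITGB1 and DST. The 4 printed here belong to a laminin chain that fell, the laminin chain that did not pass the test and the alpha subunits that did not pass it, so that both kinds of member can be read side by side. Each run is the 250 bases before the start on the gene's own strand in GRCh38.p14. Capitals mark matches to the AP-1 motif TGANTCA or to the GC box GGGCGG on either strand. The regions are chr18:23872770-23873019 on the plus strand for LAMA3, chr1:209652426-209652675 on the minus strand for LAMB3, chr5:52989102-52989351 on the plus strand for ITGA2 and chr2:172427086-172427335 on the plus strand for ITGA6. The LAMA3 window lies inside the gene, 183567 bases from the start of its canonical transcript. The start used for the ITGA6 window is 250 bases from that of its canonical transcript. Of the ITGA2 run, 12 bases are in annotated exons.
LAMA3: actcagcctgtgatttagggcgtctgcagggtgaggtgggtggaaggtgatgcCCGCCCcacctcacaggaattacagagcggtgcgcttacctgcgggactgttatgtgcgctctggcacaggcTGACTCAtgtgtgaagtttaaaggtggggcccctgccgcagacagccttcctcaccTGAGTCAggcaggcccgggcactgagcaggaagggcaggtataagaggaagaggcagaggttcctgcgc
LAMB3: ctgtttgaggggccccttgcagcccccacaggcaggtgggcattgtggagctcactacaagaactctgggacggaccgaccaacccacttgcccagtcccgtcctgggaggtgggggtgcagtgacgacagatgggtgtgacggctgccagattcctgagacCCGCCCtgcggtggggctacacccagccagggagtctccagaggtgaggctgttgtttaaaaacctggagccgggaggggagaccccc
ITGA2: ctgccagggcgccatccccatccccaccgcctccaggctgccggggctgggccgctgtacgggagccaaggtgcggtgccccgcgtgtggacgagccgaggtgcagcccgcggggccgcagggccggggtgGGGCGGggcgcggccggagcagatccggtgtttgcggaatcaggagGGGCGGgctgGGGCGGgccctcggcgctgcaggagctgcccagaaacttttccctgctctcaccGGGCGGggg
ITGA6: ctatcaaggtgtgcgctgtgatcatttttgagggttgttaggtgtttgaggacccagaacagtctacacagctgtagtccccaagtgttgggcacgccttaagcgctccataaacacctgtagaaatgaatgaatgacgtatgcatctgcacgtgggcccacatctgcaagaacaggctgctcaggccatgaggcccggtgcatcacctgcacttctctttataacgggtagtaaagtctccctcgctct

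The AP-1 motif was matched in 2 of the 6 member windows, counting also the 50 bases after the start, and in 7.76% of 27305 promoter windows. LAMA3 carried it at -125 and at -69 from the start, and DST at 26. The GC box was in 6 of 6 member windows and in 44.6% of all windows. LAMA3 had it at -197, LAMB3 at -88, and ITGA2 at -119, -73, -63 and -9. The ITGA6 match was at 34, beyond the printed bases, and ITGA6 alone among the 6 held the TATA box letters TATAAA, at -32 and on the strand opposite to the gene, so that they are not read in the printed run. On either strand 12% of all windows held them. The TEAD letters GGAATG were found in ITGB1 and DST, and in 14% of all windows. The NF-kB motif was in 0 of 6 windows and in 0.579% of all windows. There was 1 overlap between matches of different motifs, between the TEAD letters and a GC box of DST. A match of letters is a description of the window and not a measurement of a factor.

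LAMB3, the beta3 chain found only in laminin-332, had the largest fall among the 9 members. It was at 361 and 353 CPM in OE-WT and at 609.9 and 612 CPM in CTRL. The group means were 357 ± 5.49 CPM and 611 ± 1.38 CPM (SD, n = 2 each). Both OE-WT libraries were far below both CTRL libraries compared with the gap between replicates. This was a log2 fold change of -0.77 (SE 0.06), with an adjusted p of 3.2e-08 by edgeR's quasi-likelihood test. LAMB3 (ENSG00000196878) spans bases 209614870 to 209652425 of chromosome 1 on the minus strand (GRCh38), with 5 annotated transcripts. Its exons share 6 bases with the microRNA gene MIR4260, which had no count.

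LAMA3, the alpha3 chain that carries the integrin-binding end of laminin-332, was less abundant. Its level was 18.8 and 17.6 CPM in OE-WT against 21.1 and 22.1 CPM in CTRL. The groups did not overlap. The log2 fold change was -0.25 (SE 0.11), with an unadjusted p of 0.042 and an adjusted p of 0.131 by edgeR's quasi-likelihood test, so it missed the adjusted threshold alone. With scaling by library size alone it was -0.34, with an adjusted p of 0.035, and over all 12 alternatives the adjusted p ranged from 0.035 to 0.429. LAMA3 (ENSG00000053747) spans bases 23689453 to 23956222 of chromosome 18 on the plus strand and has 15 annotated transcripts. The counts are per gene, so its long and short forms were not separated. Both laminin chains were thus measured at unequal falls, and the ratio of LAMB3 to LAMA3 counts was 19.2 and 20.1 in OE-WT and 28.9 and 27.7 in CTRL. The libraries of the groups did not overlap in this ratio, but an exact two-sided permutation test of 2 against 2 cannot give a p below 0.333.

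ITGB4 encodes the beta4 subunit, whose long cytoplasmic tail is the core of the hemidesmosome. It was at 503 and 515 CPM in OE-WT and at 739 and 713 CPM in CTRL. The group means were 509 ± 8.91 CPM and 726 ± 18.7 CPM (SD, n = 2 each). The gap between the groups was many times that between replicates. ITGB4 thus had a log2 fold change of -0.51 (SE 0.06), with an adjusted p of 6.9e-06 by edgeR's quasi-likelihood test. ITGB4 (ENSG00000132470) spans bases 75721328 to 75757818 of chromosome 17 on the plus strand.

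ITGA6 encodes alpha6, the only known partner of beta4 and also a partner of beta1. It was at 73 and 74.4 CPM in OE-WT, and at 69.9 and 80.4 CPM in CTRL. The OE-WT values lay between the CTRL values. The log2 fold change was -0.03 (SE 0.08), with an adjusted p of 0.840 by edgeR's quasi-likelihood test. The 2 genes of the alpha6 beta4 dimer thus gave different values, with a count ratio of ITGB4 to ITGA6 of 6.89 and 6.93 in OE-WT and of 10.6 and 8.87 in CTRL. ITGA6 (ENSG00000091409) spans bases 172427354 to 172506459 of chromosome 2 on the plus strand. Its exons overlap 3 antisense RNA genes, of which PDK1-AS1 had the most reads at 43, 52, 45 and 57 counts in OE-WT 1, OE-WT 2, CTRL 1 and CTRL 2. Whether the counting used strand is not given in the sources used here, so part of these reads is uncertain.

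ITGA3 encodes alpha3, which pairs with beta1 to bind laminin-332. Its level was 322 and 338 CPM in OE-WT and 494 and 475 CPM in CTRL. The group means were 329.9 ± 11.3 CPM and 484 ± 13.5 CPM (SD, n = 2 each). Every OE-WT value was below every CTRL value. The log2 fold change was -0.55 (SE 0.06), with an adjusted p of 2.8e-06 by edgeR's quasi-likelihood test. ITGA3 (ENSG00000005884) spans bases 50055968 to 50090481 of chromosome 17 on the plus strand.

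ITGB1, the beta1 subunit shared by many alpha chains, was at 82 and 73.4 CPM in OE-WT and at 78.5 and 88.9 CPM in CTRL. The groups interleaved. The log2 fold change was -0.11 (SE 0.08), with an adjusted p of 0.361 by edgeR's quasi-likelihood test. After removal of the GC trend described with the sequence composition it was -0.22 (SE 0.07), with an adjusted p of 0.033, the lowest of the 12 alternatives, whose highest was 0.934. ITGB1 (ENSG00000150093) spans bases 32887273 to 33005792 of chromosome 10 on the minus strand.

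ITGA2 encodes alpha2, which pairs with beta1 mainly as a collagen receptor. It was at 42.9 and 36 CPM in OE-WT and at 38.6 and 38.8 CPM in CTRL. Both CTRL values fell between the OE-WT values. For ITGA2 the log2 fold change was 0.03 (SE 0.09), with an adjusted p of 0.872 by edgeR's quasi-likelihood test. ITGA2 (ENSG00000164171) spans bases 52989340 to 53094779 of chromosome 5 on the plus strand. Ratios of ITGA3 to ITGB1, ITGA2 and ITGA6 were lower in both OE-WT libraries than in both CTRL libraries: for ITGA3 to ITGB1 they were 3.93 and 4.61 against 6.29 and 5.34. Sharing ITGA3 over genes that did not pass the test, these ratios restate its fall and are not separate observations. By contrast the ratio of ITGA6 to ITGB1 overlapped between the groups, at 0.891 and 1.01 in OE-WT and 0.89 and 0.904 in CTRL.

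PLEC encodes plectin, the linker from the beta4 tail to keratin filaments. It was at 644 and 576 CPM in OE-WT and at 859.6 and 907 CPM in CTRL. The group means were 609.9 ± 47.7 CPM and 883 ± 33.6 CPM (SD, n = 2 each). The OE-WT replicates of PLEC differed more than those of ITGB4, yet both were below both CTRL libraries. The log2 fold change was -0.53 (SE 0.07), with an adjusted p of 1.1e-05 by edgeR's quasi-likelihood test. PLEC (ENSG00000178209) spans bases 143915153 to 143976734 of chromosome 8 on the minus strand.

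DST encodes dystonin, whose epithelial form BPAG1e sits beside plectin in the hemidesmosomes of skin. Its level was 11.9 and 8.04 CPM in OE-WT and 8.69 and 10.0 CPM in CTRL. It had 82 to 124 counts per library, the fewest among the 9 members, and its groups overlapped. For DST the log2 fold change was 0.09 (SE 0.18), with an adjusted p of 0.781 by edgeR's quasi-likelihood test. DST (ENSG00000151914) spans bases 56457987 to 56954830 of chromosome 6 on the minus strand with 41 annotated transcripts, and the epithelial form was not separated from the others. The ratio of PLEC to DST counts was 54.2 and 71.6 in OE-WT and 98.9 and 90.3 in CTRL. The ratio of PLEC to ITGB4 counts overlapped between the groups, at 1.28 and 1.12 in OE-WT and at 1.16 and 1.27 in CTRL.

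**Figure D2:**
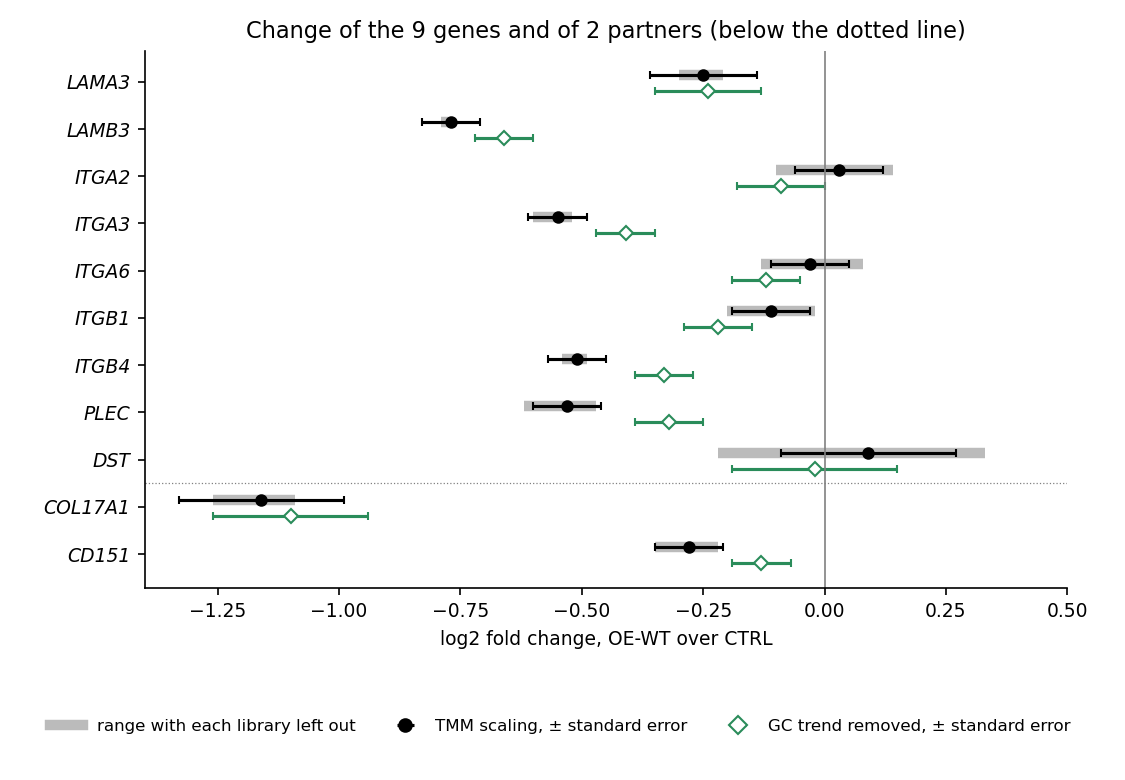
Log2 fold change of OE-WT over CTRL (horizontal axis) for the 9 members and, under the dotted line, COL17A1 and CD151, before (black) and after (green) removal of the trend with GC content, with bars for the standard error and grey bands for the range with each library left out. LAMB3, ITGA3, ITGB4 and PLEC lie at -0.51 or lower before it and at -0.32 or lower after it.

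The plot of fold changes shows the same 4 genes below 0 in both forms. When any 1 library was left out, each of them still passed the threshold by edgeR's quasi-likelihood test, with highest adjusted p-values of 8.7e-10 for LAMB3, 7.2e-06 for ITGA3, 3.0e-05 for ITGB4 and 8.0e-05 for PLEC.

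Levels were compared between genes only as CPM per kilobase of merged annotated exons. In CTRL the order ran from LAMB3 at 131 over ITGB4 at 107, PLEC at 52, ITGA3 at 49.4, ITGA6 at 11.2, ITGB1 at 5.75, ITGA2 at 4.9 and LAMA3 at 1.49 to DST at 0.195 CPM per kilobase. By this length the order of group means in OE-WT was the same, from LAMB3 at 76.9 and ITGB4 at 75.3 down to DST at 0.207 CPM per kilobase. In OE-WT the neighbours LAMB3 (77.7 and 76 CPM per kilobase) and ITGB4 (74.4 and 76.2) overlapped. PLEC and ITGA3 overlapped as well, at 37.9 and 33.9 against 32.8 and 34.5 CPM per kilobase, and so did ITGB1 and ITGA2. Dividing by the canonical transcript, a choice made after the data were seen, put ITGA3 (99) above PLEC (59.7) and ITGB1 (22.4) above ITGA6 (12.9) in CTRL, so these places in the order depend on the length used. Dividing by the longest transcript made the same exchanges and put ITGB4 (86.3) above LAMB3 (83) in OE-WT, but not in CTRL.

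**Figure D3:**
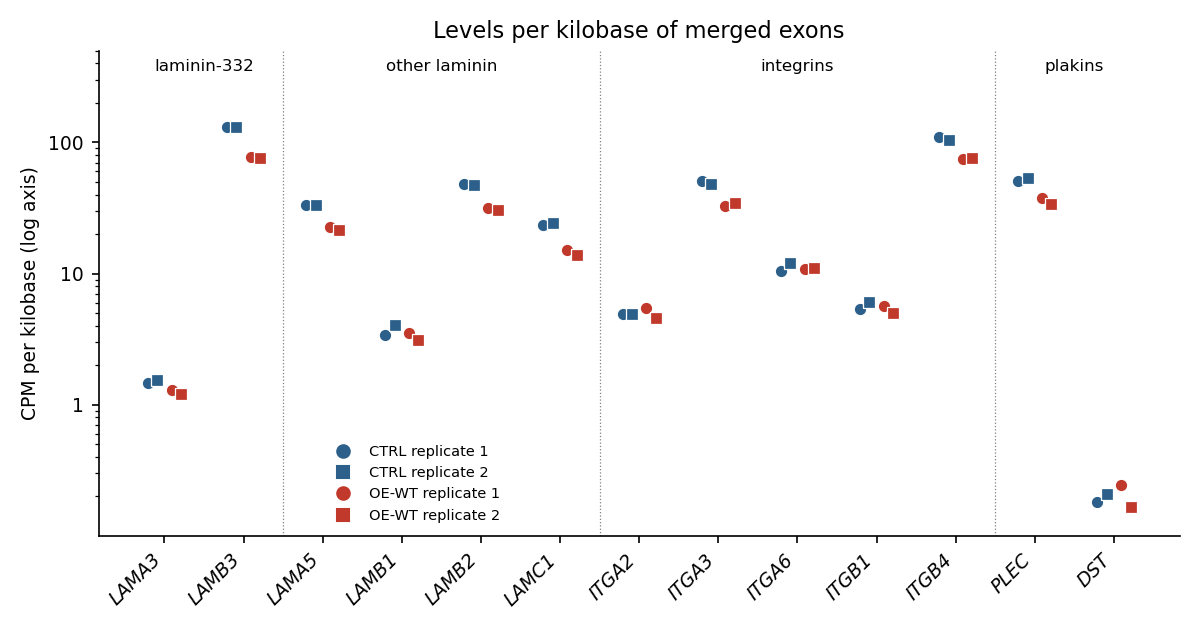
Level of each member and of 4 other laminin chains in CPM per kilobase of merged exons (vertical log axis), with 1 point per library. LAMB3 and ITGB4 are highest and DST is lowest in both groups, with LAMB3 at 131 in CTRL and 76.9 in OE-WT.

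The plot of length-scaled levels shows the 4 members that fell as the 4 highest members in both groups. The remaining subunits, ITGA6, ITGB1 and ITGA2, were at 4.9 to 11.2 CPM per kilobase in CTRL.

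The members that fell were also the GC-rich ones. The canonical transcripts of LAMB3, ITGA3, ITGB4 and PLEC had a GC content of 59.5% to 66.8%, and those of the other 5 members 39.5% to 50.7%, against a median of 49.6% over genes tested. Across the 9 members Pearson's r of GC content and log2 fold change was -0.90, and across all genes tested that had a GC value it was -0.28. Both are descriptions across genes, which share the 4 libraries. With the GC trend over all genes removed, r over genes tested was -0.03. LAMB3 was then at a log2 fold change of -0.66, ITGA3 at -0.41, ITGB4 at -0.33 and PLEC at -0.32. Their adjusted p-values by edgeR's quasi-likelihood test in that fit were 5.3e-07, 9.8e-05, 8.0e-04 and 0.0033. In that fit 5 of 9 members were lower, the fifth being ITGB1, against 10.3% of all genes tested. The part of GC content in these differences was not tested.

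**Figure D4:**
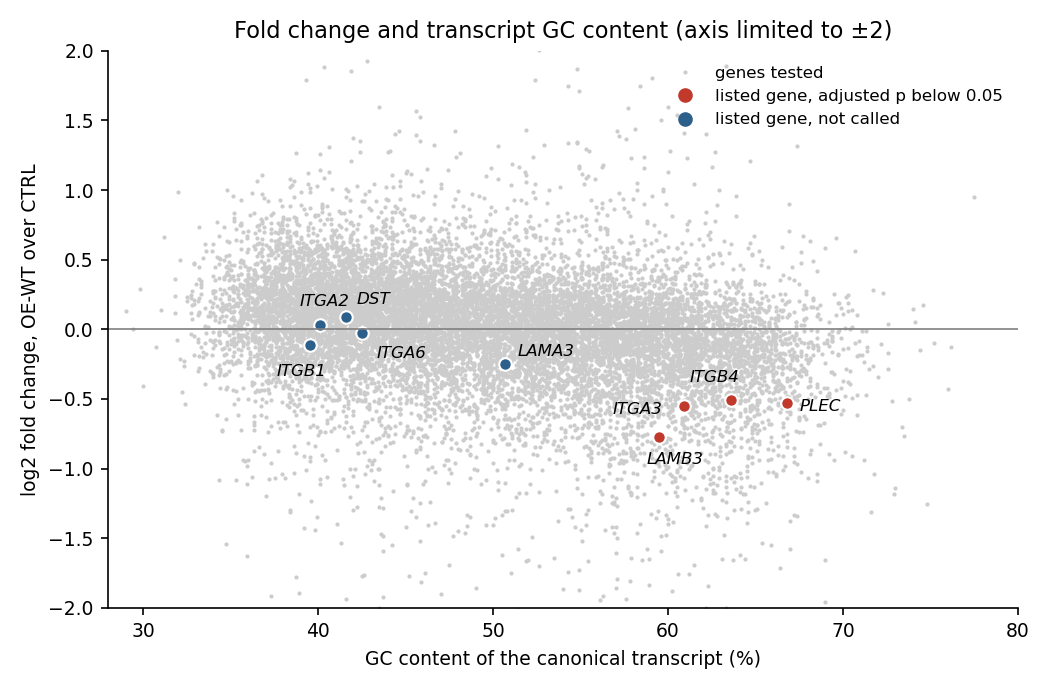
Log2 fold change of OE-WT over CTRL against the GC content of the canonical transcript in percent, with all genes tested in grey and the 9 members named. The vertical axis is limited to -2 to 2, and LAMB3, ITGA3, ITGB4 and PLEC lie at a GC content of 59.5% to 66.8% and below 0.

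The plot against GC content shows the members in separate ranges of composition. Codons differed between the same genes. The study examined GAG (glutamate), GAC (aspartate), GCA (alanine) and TTG (leucine) as codons read by tRNAs that the enzyme methylates. GAG made up 4.76% to 12.12% of the codons of the 4 genes that fell, with the highest share in PLEC, and 1.27% to 3.52% in the other 5, against a median of 3.67% over 19755 coding sequences. GAC made up at least 3.56% in the 4 genes and at most 2.33% in the other 5, against a median of 2.38%. The other codons leaned the opposite way, with overlapping ranges. GCA made up 0.44% to 1.96% in the 4 genes that fell and 1.30% to 2.62% in the other 5, against a median of 1.46%. TTG made up 0.33% to 1.19% and 1.13% to 2.28%, against a median of 1.18%. The genes with the higher shares of GAG and GAC were also the GC-rich ones, and translation was not measured in these libraries.

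Other laminin chains mostly fell with LAMB3. Of 10 listed, 6 were tested, 5 were lower and 1 was not called, with a median log2 fold change of -0.61. LAMC1, the gamma1 chain of most laminins, was at 128 and 117 CPM in OE-WT and 197 and 206 CPM in CTRL, a log2 fold change of -0.72 (SE 0.07) with an adjusted p of 2.0e-07. With the GC trend removed the log2 fold change of LAMC1 was -0.74. LAMB2 was at 218 and 208 CPM against 328 and 327 CPM (adjusted p 6.0e-07), with a log2 fold change of -0.62, or -0.49 with the GC trend removed. LAMA5, the alpha chain of laminin-511 and laminin-521, was at 322 and 309 CPM against 477 and 476 CPM (adjusted p 9.4e-07), and its log2 fold change of -0.59 became -0.38 with the GC trend removed. LAMB1 was at 65.4 and 58 CPM against 63.1 and 75.3 CPM with overlapping groups, and its log2 fold change of -0.17 did not pass (adjusted p 0.190, and 0.025 to 0.862 over the alternatives, passing with scaling by library size alone and without CTRL replicate 1). LAMA2, named after its values were seen, had 11 and 13 counts against 32 and 28 counts (log2 fold change -0.99, adjusted p 0.041, and 0.081 to 0.191 with each library left out, passing in none of these fits). These p-values and those of the lists that follow are from edgeR's quasi-likelihood test, adjusted over all genes tested. The counts of each list stand beside 11.6% of all genes tested called lower and 9.44% called higher.

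Of 21 other integrin subunits, 12 were tested, of which 5 were lower, 1 was higher and 6 were not called. ITGA5, the alpha subunit of the main fibronectin receptor, was at 55.7 and 64.2 CPM in OE-WT and 101 and 98.6 CPM in CTRL, a log2 fold change of -0.73 (SE 0.08) with an adjusted p of 7.1e-07. With the GC trend removed the log2 fold change of ITGA5 was -0.64. ITGAV, the alpha subunit of several receptors for RGD ligands, was at 37.2 and 32.8 CPM against 43.5 and 43.3 CPM (log2 fold change -0.31, adjusted p 0.016, and 0.0011 to 0.133 over the alternatives, not passing by DESeq2 or without OE-WT replicate 2). ITGB5, which pairs with it, was at 261 and 289.6 CPM against 319 and 334 CPM (log2 fold change -0.25, adjusted p 0.012, and 0.0021 to 0.173 over the alternatives, the log2 fold change being -0.17 without OE-WT replicate 1 and -0.21 without CTRL replicate 2). These calls rested on small differences. ITGA9 was at 7.24 and 7.75 CPM against 10.9 and 10.9 CPM (log2 fold change -0.54, adjusted p 0.021, and 0.0038 to 0.155 over the alternatives, the highest by DESeq2). The last of the 5, ITGAX, named after its values were seen, had 3 and 7 counts against 30 and 18 counts (log2 fold change -1.91, adjusted p 0.0061). With a library left out its log2 fold change ranged from -2.62 (without OE-WT replicate 2) to -1.45 (without OE-WT replicate 1) and its adjusted p from 0.0010 to 0.094, not passing without OE-WT replicate 1 or CTRL replicate 1. The subunit that rose was ITGA1, alpha1 of another collagen-binding dimer, at 58 and 77 counts in OE-WT against 25 and 45 counts in CTRL, with a log2 fold change of 1.27 (SE 0.26) and an adjusted p of 0.0013. ITGB6 was at 3.32 and 3.14 CPM against 3.1 and 2.75 CPM, with an adjusted p of 0.752.

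In the list of hemidesmosome partners and their keratins, the partners called were lower and the keratins called were higher. Of 7 genes listed, 5 were tested, 2 were higher, 2 were lower and 1 was not called, with a median log2 fold change of 0.07. COL17A1, the transmembrane collagen of hemidesmosomes (BP180), was at 5.63 and 6.28 CPM in OE-WT and 12.8 and 13.9 CPM in CTRL. Its log2 fold change was -1.16 (SE 0.17), with an adjusted p of 3.3e-05, and -1.10 with the GC trend removed. CD151, the tetraspanin bound to the laminin-binding integrins, was at 579.8 and 627 CPM against 741 and 723 CPM (log2 fold change -0.28, adjusted p 0.0042, and 7.1e-04 to 0.167 over the alternatives, with a log2 fold change of -0.13 once the GC trend was removed and -0.22 without OE-WT replicate 1). The keratins of simple epithelia were higher in OE-WT: KRT8 was at 5903 and 6098 CPM against 5114 and 4963 CPM, and KRT18 at 3772 and 3925 CPM against 3207 and 3064 CPM. Their log2 fold changes were 0.25 and 0.30, with adjusted p-values of 0.017 and 0.0051, and over the alternatives these ranged from 5.7e-04 to 0.303 for KRT8 and from 2.6e-04 to 0.153 for KRT18, both highest with scaling by library size alone. Without OE-WT replicate 2 neither passed, at 0.195 and 0.088.

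The other plakins, large linkers of the family of PLEC and DST, were all 5 tested, and 3 were lower and 2 higher. PPL, the periplakin gene, was at 134 and 133 CPM in OE-WT and 203 and 198 CPM in CTRL, with an adjusted p of 1.2e-06. The log2 fold change of PPL was -0.59, or -0.47 with the GC trend removed. EPPK1 was at 8.95 and 7.45 CPM against 14.4 and 16.2 CPM (log2 fold change -0.90, adjusted p 2.9e-04), and EVPL had a log2 fold change of -0.46 (adjusted p 3.0e-04), or -0.26 with the GC trend removed. MACF1, a linker of actin and microtubules, had a log2 fold change of 0.48 (adjusted p 0.0036, and 6.9e-04 to 0.080 over the alternatives, the highest without OE-WT replicate 1). DSP, the desmosomal plakin, had 0.31 (adjusted p 0.030, and 0.024 to 0.207 over the alternatives, not passing in 7 of 12). Among 5 other laminin receptors, all tested, 2 were lower and 1 was higher. BCAM, a receptor of laminin alpha5, was at 54.5 and 66.9 CPM against 106 and 107 CPM, with a log2 fold change of -0.81 (adjusted p 4.9e-07), or -0.60 with the GC trend removed. SDC1 had a log2 fold change of -0.26 (adjusted p 0.0070, and 0.0012 to 0.111 over the alternatives, the highest with the GC trend removed). SDC4 had a log2 fold change of 0.24 (adjusted p 0.023, and 0.0059 to 0.346 over the alternatives, not passing in 6 of 12, with 0.13 on the log2 scale without OE-WT replicate 2).

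Inside the cell, 31 integrin adaptors and focal adhesion genes were listed and 28 tested, of which 6 were lower, 2 were higher and 20 were not called. Among all genes tested 21.1% were called, 11.6% lower and 9.44% higher, and no test of this list against them was run. TNS1 was at 3.12 and 3.34 CPM against 7.14 and 8.18 CPM (log2 fold change -1.24, adjusted p 2.3e-04), and TNS2 had a log2 fold change of -0.60 (adjusted p 0.029, and 0.0057 to 0.205 over the alternatives, not passing in 4 of 12). The genes that rose were FERMT1, the epithelial kindlin that activates integrins, and the tensin TNS4. FERMT1 was at 31.1 and 29.9 CPM against 20.6 and 20.3 CPM (adjusted p 3.4e-04), and TNS4 at 494 and 509 CPM against 382 and 356 CPM (adjusted p 4.6e-05).

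Proteases that process laminin-332 were lower where they changed: of 5 listed, 3 were tested, 2 were lower and 1 was not called. MMP14, the membrane-bound protease MT1-MMP, was at 15.2 ± 0.436 CPM in OE-WT and 47.7 ± 3.24 CPM in CTRL (SD, n = 2 each). MMP14 had a log2 fold change of -1.65 (SE 0.10), with an adjusted p of 4.1e-10, and -1.54 with the GC trend removed. BMP1, which trims procollagens and laminin chains, was at 43.1 and 48.9 CPM against 67.7 and 59.9 CPM (adjusted p 4.6e-04). Of 6 collagen chains bound by integrin alpha2 beta1, 4 were tested and 1 was higher, COL4A2 of basement membrane collagen IV, at 35.3 and 33.4 CPM against 23.9 and 26.7 CPM (adjusted p 0.0027). The other 3 were not called.

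The plot of the lists shows the laminin chains lowest in median, and both directions among integrins, plakins and adaptors. The list of hemidesmosome partners and keratins also held both directions, with only keratins called higher. No test between lists was run.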

How the data were processed

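Whole-transcriptome libraries of DLD1 cells were compared between OE-WT and CTRL. The authors deposited raw read counts per Ensembl gene, 1 column for each of 4 libraries, whose names give no lane although the labels list 2 lanes each. The submitters' processing notes name HISAT2 2.2.1, featureCounts 2.0.0 and DESeq2 1.34.0. The study's methods name HTSeq and edgeR, ribosomal RNA removal and 3 replicates, whereas the labels give poly(A) selection, a stranded kit and 2 replicates. There were 0 other columns of sample values, and 0 rows named no gene. Names, coordinates, lengths and GC content came from GENCODE 44, with 57532 of 58302 identifiers matched and a GC value for 14051 of 14133 genes tested.

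Counts were analysed with edgeR 4.0.16 in R 4.3.3. Low genes were removed by filterByExpr with a minimum count of 10, TMM factors were applied, and a quasi-likelihood F-test (two-sided) was fitted with Benjamini-Hochberg adjustment over all genes tested. CPM values use TMM-scaled totals. A count of 0 allows up to 3 counts, or 0.242 to 0.290 CPM, for counting error only. The test was tried on simulated counts. Alternatives were other scalings, DESeq2 1.42.0, edgeR's exact test, other filters, a replicate block, a GC trend removed by lowess (span 0.3), and each library left out. The members and lists were chosen with earlier results of these data known. Genes named were the members, TRMT6 and TRMT61A, CD151, COL17A1, LAMA5, LAMB1, LAMC1, ITGAV, ITGA5, ITGB5 and ITGB6, and up to 3 of the largest called changes in each direction of each list (mean of 50 counts or more, groups not overlapping). Some genes of these lists are counted but not reported here by name. Start-site windows were RefSeq's, from 250 bases before to 50 after the start. Figures were drawn with matplotlib 3.10.9 in Python 3.11.15.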

Additional observations from a re-analysis of the deposited data

How the results depend on the processing

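For the members, 4 lower and 0 higher held under all 12 alternatives, except that 5 were lower with scaling by library size alone (LAMA3 added) and with the GC trend removed (ITGB1 added). The direction of the 4 called members held throughout, but 3 members that did not pass changed sign. ITGA2 (0.03 on the log2 scale) was at -0.07 with scaling by library size alone, at -0.09 with the GC trend removed and at -0.10 to 0.14 with a library left out. DST (0.09) was at -0.01, -0.02 and -0.22 to 0.33 in the same settings. ITGA6 (-0.03) was at -0.13 to 0.08 with a library left out. The same-numbered libraries share only a number (correlation of their deviations -0.068). The replicate block left 4 members lower, and it left 1 hemidesmosome partner or keratin higher in place of 2, 1 plakin in place of 2 and 0 other laminin receptors in place of 1.

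Over all genes tested, 1334 were higher and 1642 lower. Scaling by library size alone, which moved the median log2 fold change of all genes from 0.01 to -0.08, gave 733 higher and 2451 lower. It also left 0 hemidesmosome partners or keratins, 1 plakin and 0 laminin receptors higher, and made 1 collagen chain lower, as did edgeR's exact test (1). DESeq2 gave 522 higher and 855 lower (78 and 210 past the study's thresholds, against 127 and 318), with 2 other integrin subunits lower in place of 5, 1 plakin higher, 0 laminin receptors higher and 2 adaptors lower in place of 6. Of the integrin subunits not called there, ITGAV and ITGA9 did not pass (adjusted p 0.128 and 0.155 by DESeq2). ITGAX was given no adjusted p by DESeq2, at a log2 fold change of -1.93. With no filter beyond 1 count, 844 were higher, 236 and 502 were past the study's thresholds, 1 plakin was higher and 0 laminin receptors were higher. With at least 10 counts in every library, 66 and 150 were past those thresholds. Removing the GC trend left 1 hemidesmosome partner or keratin, 1 laminin receptor and 3 adaptors lower.

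With each library left out in turn, an arm of 1 library being assumed to vary like the others, the members stayed at 4 lower. All genes higher ranged from 780 (without CTRL replicate 1) to 1209, with 817 without OE-WT replicate 1. Other integrin subunits lower ranged from 2 (without OE-WT replicate 1) to 4, with 3 without CTRL replicate 1 or CTRL replicate 2. Hemidesmosome partners or keratins ranged from 0 (without OE-WT replicate 2) to 2 higher, with 1 without OE-WT replicate 1 or CTRL replicate 2, and from 1 (without OE-WT replicate 1) to 2 lower. Plakins higher were 1 in each. Other laminin receptors ranged from 0 (without OE-WT replicate 2 or CTRL replicate 2) to 1 higher and from 1 (without OE-WT replicate 1 or CTRL replicate 1) to 3 lower. Adaptors lower ranged from 2 (without CTRL replicate 2) to 4, with 3 without OE-WT replicate 1. Collagen chains lower ranged from 0 to 1 (without OE-WT replicate 2 or CTRL replicate 2). The cause was not tested. With 2 libraries a group, differences in LAMA3 and DST, the least abundant members, were the least precise.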
